A study of Mus musculus with 10 samples.

Results

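The small leucine-rich proteoglycans described here are the products of 9 genes, Fmod, Prelp, Lum, Kera, Omd, Ogn, Epyc, Bgn and Dcn. Every probe set that carried only 1 of these symbols was taken, which gave 19 probe sets for 9 of the 18194 genes that the arrays name. Whole mouse lenses had been profiled on Affymetrix mouse 430 2 arrays, 1 array per sample and 10 arrays in all. At postnatal day 56 (PN56) there were 2 arrays of Klf4-conditional null lenses (Klf4CN) and 2 of wild-type (WT) lenses, each from the pooled lenses of 3 young adults. At embryonic day 16.5 (E16.5) there were 3 Klf4CN and 3 WT arrays, each from the pooled lenses of 5 embryos. The labels call the samples independent preparations, and they give neither the Cre line behind the conditional allele nor the mouse strain. They name no other allele or agent. The number of arrays limits the precision of every comparison.

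Small leucine-rich proteoglycans are secreted proteins built from leucine-rich repeats, most of which carry chondroitin, dermatan or keratan sulfate chains. They bind collagen fibrils and set their diameter and spacing, and several also hold growth factors such as TGF-beta in the matrix. Lumican and keratocan are best known from the corneal stroma, where they keep the fibrils evenly spaced. The lens is wrapped in a thick basement membrane, its capsule, and has no fibrillar stroma of its own. Klf4 is a zinc finger transcription factor of the Kruppel-like family, whose members bind CACCC boxes and GC-rich sequence.

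RefSeq promoter windows (build GRCm38.p6) were matched by symbol to 7 of the 9 genes, and Dcn and Lum had no entry. The 250 bases before the start are printed for Fmod and Prelp, which are neighbours on chromosome 1 and whose signals were both far higher in the adult lens, and for Ogn and Bgn, which were called lower in adult Klf4CN lenses. Capitals mark CACCC on either strand (read as GGGTG when it lies on the opposite strand) and TATAAA on either strand. The Fmod window is chr1:134037004-134037253 on the plus strand, the Prelp window chr1:133921402-133921651 on the minus strand, the Ogn window chr13:49607765-49608014 on the plus strand and the Bgn window chrX:73483351-73483600 on the plus strand. Each is written 5′ to 3′ along its gene.
Fmod: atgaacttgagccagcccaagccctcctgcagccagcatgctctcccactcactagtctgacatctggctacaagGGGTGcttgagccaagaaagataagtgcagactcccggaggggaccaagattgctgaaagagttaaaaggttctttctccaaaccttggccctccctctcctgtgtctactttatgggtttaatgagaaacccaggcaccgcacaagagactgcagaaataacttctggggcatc
Prelp: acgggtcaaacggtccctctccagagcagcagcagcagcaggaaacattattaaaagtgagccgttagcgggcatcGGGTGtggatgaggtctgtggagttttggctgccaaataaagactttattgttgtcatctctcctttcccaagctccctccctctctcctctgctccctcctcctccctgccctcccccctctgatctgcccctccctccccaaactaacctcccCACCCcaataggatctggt
Ogn: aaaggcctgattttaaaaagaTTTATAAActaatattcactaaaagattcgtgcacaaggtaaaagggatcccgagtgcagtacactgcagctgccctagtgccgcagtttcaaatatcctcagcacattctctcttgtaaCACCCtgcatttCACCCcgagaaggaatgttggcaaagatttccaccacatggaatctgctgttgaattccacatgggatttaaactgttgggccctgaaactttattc
Bgn: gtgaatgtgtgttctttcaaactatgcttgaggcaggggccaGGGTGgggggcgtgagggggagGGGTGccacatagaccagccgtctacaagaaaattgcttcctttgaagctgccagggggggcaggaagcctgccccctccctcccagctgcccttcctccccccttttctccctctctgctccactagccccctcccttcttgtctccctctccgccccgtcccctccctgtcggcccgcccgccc
Fmod held 1 CACCC box on the opposite strand, 175 bases before the start. Prelp held 2, at 174 bases on the opposite strand and at 19 bases on the gene's own strand. Ogn held 2 on its own strand, at 109 and 97 bases, and TATAAA once on each strand at 229 and 227 bases, the 2 matches overlapping each other. Bgn held 2 on the opposite strand, at 208 and 186 bases, in a window that was 64.4% G or C. The windows of Kera and Omd and both windows of Epyc held none of the 3 motifs searched, and TGCTGAC, a part of a Maf recognition element, was in none of the 8 windows. Over all 32851 RefSeq windows of this length, 52% held CACCC on either strand, 12.4% TATAAA and 3.81% TGCTGAC, so that a CACCC box is common. These are matches of letters and not measured binding sites.

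Values are the deposited linear signals, whose mean after trimming 2% at each end was 500 on every array, which points to a scaling array by array. Differences are in log2(signal + 16), with the standard error (SE) and the limma p-value adjusted over all 13440 genes tested, and a gene was called at an adjusted p under 0.05. The brightest probe set stood for its gene, and a gene was tested when its mean over the 10 arrays was no lower than a signal of 45.1, the 40th percentile over all probe sets. Of the 19 member probe sets 14 passed, and of the 9 members 6 were tested. Kera, Omd and Epyc were below the filter. Fmod passed through its adult signal, since 5 of its 6 embryonic signals lay below that level. Prelp was below it on 2 of the 3 embryonic WT arrays and above it on the 3 embryonic Klf4CN arrays. Levels of different probe sets are not compared with each other.

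Several facts of the whole series bear on these values. The Klf4 probe set was brighter in the lenses labelled Klf4CN, at 702.2 to 731.8 in PN56 Klf4CN lenses and 156.5 to 213.5 in PN56 WT lenses (log2 difference 1.88, limma adjusted p = 0.004108), and it may lie outside the deleted part of the gene, so every direction is that of the lenses labelled Klf4CN. Age cannot be told apart from preparation, because the dap poly-A spike was at 2.6 to 59.1 on PN56 arrays and 4908.4 to 7005.3 on E16.5 arrays. The 5′ control of 18S ribosomal RNA was at 5700.1 to 11005.1 in PN56 Klf4CN, 527.5 to 2870 in PN56 WT, 20896.7 to 22775.7 in E16.5 Klf4CN and 1155.3 to 2412.8 in E16.5 WT lenses. The control AFFX-CreX-3_at was at 51262 and 53237.7 in PN56 Klf4CN and 72629.1 and 83845.2 in PN56 WT lenses. At E16.5 that control was at 32762 to 33438.8 in Klf4CN and 36402 to 42062.2 in WT lenses. The part of these controls in any genotype difference was not tested. The lens markers were present throughout, Cryaa at 63471.6 to 64425.4 in PN56 Klf4CN, 93649 to 99904.6 in PN56 WT, 15226.9 to 20668.6 in E16.5 Klf4CN and 20821.9 to 24305.6 in E16.5 WT lenses, and 7 of 9 lens markers were called lower in PN56 Klf4CN than in PN56 WT lenses. Of all tested genes 6.98% were called lower in that comparison. In whole lenses, fewer cells of a type and less RNA per cell cannot be told apart.

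**Figure D1:**
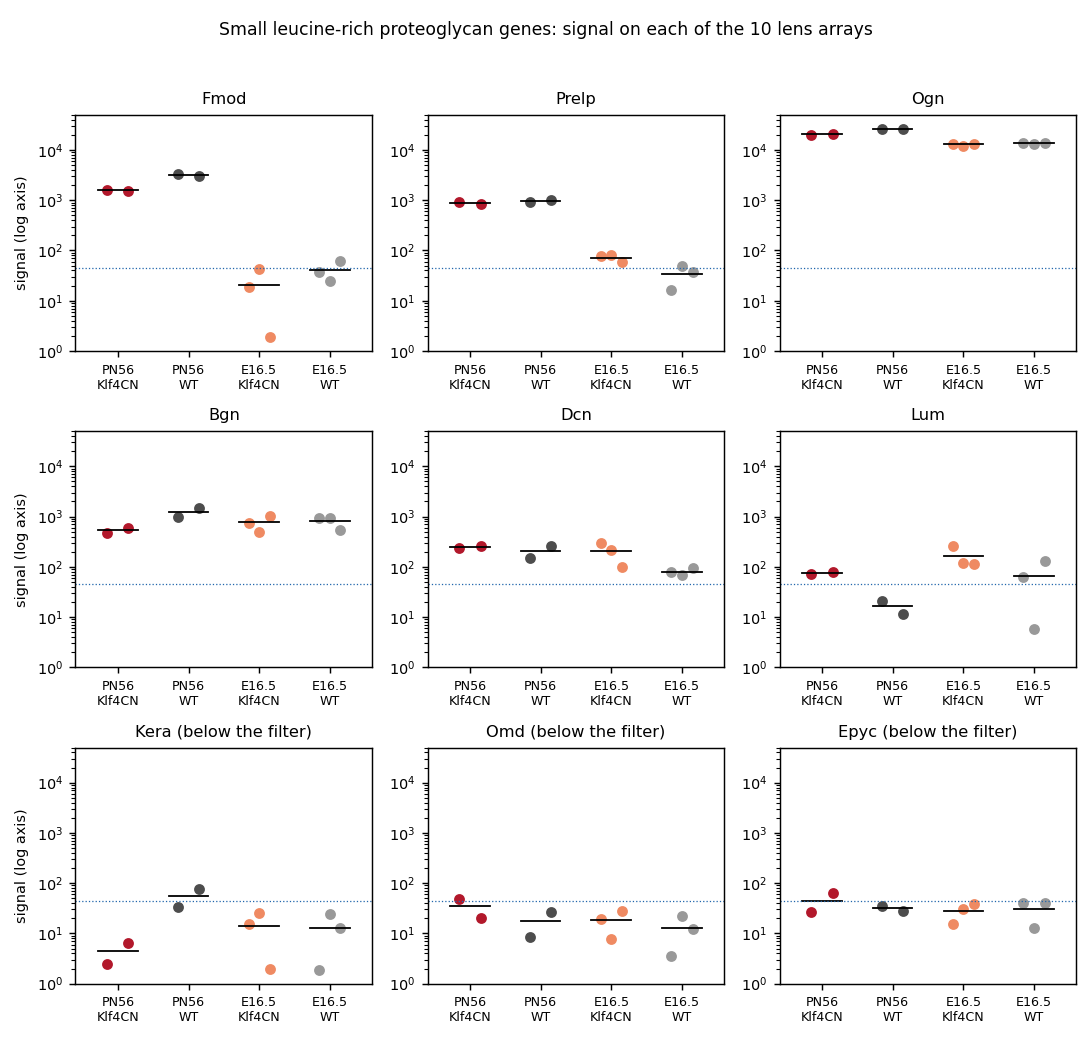
Deposited signal (vertical log axis) of the brightest probe set of each of the 9 genes on the 10 arrays, PN56 Klf4CN, PN56 WT, E16.5 Klf4CN and E16.5 WT from left to right. Points are arrays, black bars group means and the dotted line the filter at a signal of 45.1. Fmod and Prelp stand far above the line at PN56 and far lower at E16.5, Ogn is bright at both ages, and Kera, Omd and Epyc lie mostly below the line.

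The adult and the embryonic lens differed most in Fmod and Prelp. Both were far brighter at PN56 than at E16.5 in both genotypes. At E16.5 the brightest Fmod probe set was at the dim end of the array, at 1.9 to 61.7. Another Fmod set, 1437718_x_at, read 63.9 to 85.4 there. Embryonic Prelp was below the array medians of 63 to 76.6 in WT lenses and around those of 69.4 to 76.9 in Klf4CN lenses. Ogn rose with age as well, by less than 1 on the log2 scale at its brightest probe set, and Dcn rose in WT lenses by 1.15 with a call that several settings ended. In WT lenses 4 of the 6 tested members were called higher at PN56 than at E16.5 and 0 lower, where 25% of all tested genes were called higher. In Klf4CN lenses 3 of 6 were called higher and 0 lower, where 21.6% of all tested genes were called higher. The members' median difference was 1.04 in WT lenses, where that of all tested genes was -0.043, and 0.53 in Klf4CN lenses, where it was -0.10. These medians and counts leave out 3 members below the filter, and Fmod passed it through the age at which it is bright. Centring each array on its median lowered the all-gene median of the age difference by 0.52 in WT lenses and by 0.34 in Klf4CN lenses, and relative to that shift Fmod, Prelp and Ogn were still called higher in both genotypes.

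Fmod encodes fibromodulin, which binds collagen fibrils through its repeats and carries keratan sulfate. Its brightest probe set, 1456084_x_at, gave signals of 1621.6 and 1514.9 in PN56 Klf4CN lenses, 3361.6 and 3058.8 in PN56 WT lenses, 18.4, 42.8 and 1.9 in E16.5 Klf4CN lenses, and 37.4, 24.2 and 61.7 in E16.5 WT lenses. All 4 adult arrays lay far above all 6 embryonic arrays, and on 5 of those 6 the signal was under the filter level. The difference PN56 minus E16.5 was 5.58 ± 0.42 in Klf4CN lenses (SE; limma adjusted p = 4.593e-07) and 5.87 ± 0.42 in WT lenses (limma adjusted p = 2.617e-07). Because the embryonic signals are so dim, the size depends on the offset: in WT lenses an offset of 1 gave 6.35 and an offset of 64 gave 4.98. All 6 Fmod probe sets were called higher at PN56 in WT lenses, by 2.93 to 5.87.

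Prelp encodes PRELP, a proteoglycan whose basic N-terminal part binds heparan sulfate and which can link basement membrane to collagen. Signals of probe set 1416321_s_at were 907.6 and 860 in PN56 Klf4CN lenses, 907.1 and 990.7 in PN56 WT lenses, 77.7, 79.5 and 59.6 in E16.5 Klf4CN lenses, and 16.5, 50.2 and 37.8 in E16.5 WT lenses. The ages did not overlap in either genotype. The difference PN56 minus E16.5 was 3.36 ± 0.31 in Klf4CN lenses (SE; limma adjusted p = 2.236e-06) and 4.31 ± 0.31 in WT lenses (limma adjusted p = 2.404e-07). A second Prelp probe set, below the filter and not tested, showed the same separation, at 127 to 245.6 in PN56 Klf4CN, 247.3 to 281.7 in PN56 WT, 3.8 to 7.3 in E16.5 Klf4CN and 4.4 to 8.5 in E16.5 WT lenses.

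Ogn encodes osteoglycin, also called mimecan, a small keratan sulfate proteoglycan of the cornea and other connective tissues. Its brightest probe set, 1419663_at, gave 19875.1 and 20939.6 in PN56 Klf4CN lenses, 25680 and 25636.6 in PN56 WT lenses, 13356.1, 12181.5 and 13223.3 in E16.5 Klf4CN lenses, and 13734.2, 12951.6 and 14012.3 in E16.5 WT lenses. Every adult array was above every embryonic array. The age difference was 0.66 ± 0.083 in Klf4CN lenses (SE; limma adjusted p = 3.266e-05) and 0.92 ± 0.083 in WT lenses (limma adjusted p = 1.792e-06). The second Ogn probe set gave larger age differences, 1.50 in Klf4CN and 1.92 in WT lenses. After median centring the difference was 0.32 in Klf4CN lenses and 0.40 in WT lenses, still past the test, and quantile normalization gave 0.31 in Klf4CN lenses.

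Dcn encodes decorin, a dermatan sulfate proteoglycan that binds collagen and TGF-beta. The signals of 1449368_at were 237.1 and 260.3 in PN56 Klf4CN lenses, 147.1 and 262.2 in PN56 WT lenses, 299.9, 213.5 and 97.2 in E16.5 Klf4CN lenses, and 78.6, 68.2 and 94.9 in E16.5 WT lenses. Both adult WT arrays were above the 3 embryonic WT arrays, whereas the ages overlapped in Klf4CN lenses. The age difference was 0.39 ± 0.40 in Klf4CN lenses (SE; limma adjusted p = 0.4375) and 1.15 ± 0.40 in WT lenses (limma adjusted p = 0.02777). The WT call was lost with quantile normalization (0.83, limma adjusted p = 0.09897), after median centring of the arrays (0.63, adjusted p = 0.1912), with array weights (adjusted p = 0.07884), without PN56 WT replicate 2 (0.77, adjusted p = 0.2149), without E16.5 WT replicate 1 (adjusted p = 0.0557) and without E16.5 WT replicate 2 (adjusted p = 0.06993). A second Dcn probe set was below the filter, at 9.7 and 3.7 in PN56 Klf4CN lenses, 65.4 and 27.2 in PN56 WT lenses, 2.8 to 15.8 in E16.5 Klf4CN lenses and 5.7 to 8.6 in E16.5 WT lenses.

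Bgn and Lum were not called between the ages. Bgn, which encodes biglycan, a close relative of decorin with 2 chondroitin or dermatan sulfate chains, differed by -0.45 ± 0.31 in Klf4CN lenses (SE; limma adjusted p = 0.2426) and 0.62 ± 0.31 in WT lenses (limma adjusted p = 0.1055). In Klf4CN lenses Bgn was called lower at PN56 once arrays were centred on their medians (-0.79, limma adjusted p = 0.03811). Lum, which encodes lumican, differed by -0.90 in Klf4CN lenses (limma adjusted p = 0.2819) and -0.98 in WT lenses (adjusted p = 0.2332), and was called lower in WT lenses without E16.5 WT replicate 2, whose signal of 5.8 was far below the other 2 embryonic WT arrays (-1.74, adjusted p = 0.01351).

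Markers of other cell types moved with age too. Summed signals of the 6 endothelial markers were 334.5 to 393.6 in PN56 Klf4CN, 311.8 to 478 in PN56 WT, 3270.9 to 5365.3 in E16.5 Klf4CN and 3170.2 to 4528.9 in E16.5 WT lenses, and those of the 7 macrophage markers were 1832.1 to 2999.4 in PN56 Klf4CN, 1631.3 to 1744.1 in PN56 WT, 7728 to 9253.2 in E16.5 Klf4CN and 5546.1 to 7535.3 in E16.5 WT lenses. Both lists were lower in the adult lens, where Fmod, Prelp and Ogn were higher. The pigment cell markers went with these members in WT lenses: 4 of 6 tested were called higher at PN56 and 0 lower, with a median of 2.39, and the 7 markers summed to 6726.5 to 8436.4 in PN56 WT and 919.3 to 2313.2 in E16.5 WT lenses. In Klf4CN lenses 1 pigment marker was called higher and 1 lower, with sums of 3245.7 to 3477.3 at PN56 and 2256.3 to 7754.5 at E16.5 that overlapped. In WT lenses 8 of 9 lens markers and both tested cartilage markers were also called higher at PN56. In Klf4CN lenses 8 lens markers were called higher and 1 lower, and 0 of the 2 tested cartilage markers were called. Of all tested genes 25% were called higher and 30.7% lower in WT lenses. In Klf4CN lenses those shares were 21.6% and 30.5%. The 10 fibroblast and mesenchyme markers summed to 3664.7 to 4497.7 in PN56 Klf4CN, 4615.6 to 5463.1 in PN56 WT, 5119.6 to 5507.8 in E16.5 Klf4CN and 5394.5 to 5638.8 in E16.5 WT lenses. They did not move together, as of 8 tested 3 were called higher and 2 lower with age in each genotype. The WT mean of Prrx1 went from 78.9 at E16.5 to 668 at PN56, Pdgfrb from 677 to 1670 and Thy1 from 58.4 to 264. Pdgfra, the largest term at E16.5, went from 3557 to 1747 and Col3a1 from 393 to 15.5. The 5 corneal epithelium markers summed to 5616.5 to 6837.3 in PN56 Klf4CN, 11307.3 to 13422.7 in PN56 WT, 106 to 284.4 in E16.5 Klf4CN and 117.8 to 208.7 in E16.5 WT lenses, nearly all of the adult sum being Aldh3a1. The defining corneal keratin Krt12 was dim, at 48.4 to 73.8 in PN56 Klf4CN, 20.8 to 153.1 in PN56 WT, 1.6 to 37.5 in E16.5 Klf4CN and 28 to 37.6 in E16.5 WT lenses. Krt15 was at 335.7 to 378.1 in PN56 Klf4CN, 25.6 to 148.7 in PN56 WT, 4.1 to 74.9 in E16.5 Klf4CN and 7 to 55.2 in E16.5 WT lenses. The part of other cells in the age differences was not tested.

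**Figure D2:**
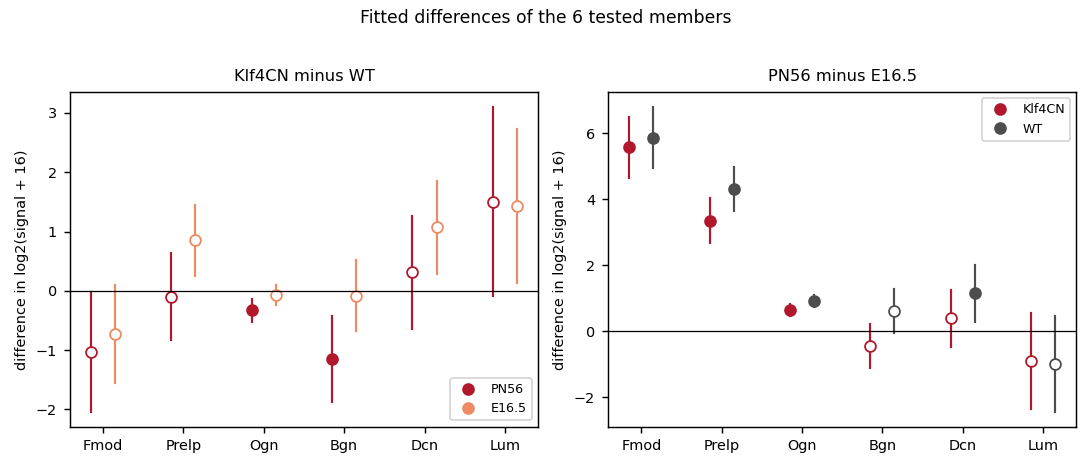
Fitted differences in log2(signal + 16) of the 6 tested members, Klf4CN minus WT at each age (left) and PN56 minus E16.5 in each genotype (right). Circles are estimates, filled where the adjusted p is under 0.05, and lines are 95% confidence intervals. On the left only Ogn and Bgn at PN56 are filled, both below 0; on the right Fmod lies above 5, Prelp above 3 and Ogn below 1 in both genotypes.

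The comparison of genotypes at PN56 asked what differs in the adult lens when Klf4 carries the conditional null allele. Ogn and Bgn were called lower in Klf4CN than in WT lenses, and Fmod was at -1.03 without passing the test. Of the 6 tested members 2 were called lower and 0 higher. Over all tested genes 6.98% were called lower and 13% in either direction. The members' median difference was -0.22, where that of all tested genes was -0.056. Centring each array on its median raised the all-gene median by 0.13 and raised the share of calls that were higher, which was 46.4%, to 71.9%; no member was called in that setting. Summed signals of several marker lists were lower in the same Klf4CN lenses with no overlap. The 7 pigment cell markers summed to 3245.7 to 3477.3 in PN56 Klf4CN and 6726.5 to 8436.4 in PN56 WT lenses, with a median difference of -0.94 and 0 of 6 tested called. The 6 cartilage markers summed to 369.9 to 415.4 in PN56 Klf4CN and 617.9 to 738.9 in PN56 WT lenses, and the 6 retinal markers to 813.3 to 1042.4 in PN56 Klf4CN and 1284.8 to 1509.8 in PN56 WT lenses. The lens, corneal epithelium and fibroblast sums did not overlap either, whereas the macrophage sum was higher in Klf4CN lenses. Aldh3a1 made up nearly all of the corneal sum. Krt15 of that list went the other way, at 335.7 to 378.1 in PN56 Klf4CN and 25.6 to 148.7 in PN56 WT lenses, and Krt5, Krt12 and Krt14 overlapped. The largest terms of the fibroblast sum were Pdgfra and Pdgfrb, both lower, while Postn, Twist2 and Col3a1 of that list were higher without overlap. The part of these cells in the member differences was not tested. The number of members called lower was 0 in 10 alternatives, among them those without any one of the 4 PN56 arrays, 1 in 3 alternatives, 2 in 7 alternatives and 3 with an offset of 64.

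The 2 calls had different sizes. For Ogn both Klf4CN arrays, at 19875.1 and 20939.6, were below both WT arrays, at 25680 and 25636.6, a difference of -0.33 ± 0.091 (SE; limma adjusted p = 0.03345). The second Ogn probe set, 1419662_at, with 18587.3 and 21760.2 in Klf4CN lenses and 23937.6 and 24995 in WT lenses, differed by -0.28 and was not past the test (limma adjusted p = 0.2306). Over 23 alternatives the Ogn call was lost in 13, with limma adjusted p-values between 0.01482 and 0.3483 over all of them. Centring each array on its median brought the difference to -0.20 (adjusted p = 0.3483). Without PN56 Klf4CN replicate 1 or 2 the adjusted p was 0.09233 or 0.05805, without PN56 WT replicate 1 or 2 it was 0.09758 or 0.07847, without E16.5 Klf4CN replicate 1 it was 0.05403, and without E16.5 WT replicate 1 it was 0.05133. The 9 lens markers had a median difference of -0.46 in the same comparison, a larger drop than that of Ogn, and the part of lens cell content in the Ogn difference was not tested.

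Probe set 1416405_at of Bgn gave 478.1 and 600 in PN56 Klf4CN lenses and 997.6 and 1457.1 in PN56 WT lenses. The genotypes did not overlap, and the difference was -1.15 ± 0.34 (SE; limma adjusted p = 0.0424). A second probe set, 1448323_a_at, at 435.6 and 554.9 in Klf4CN lenses and 1081.2 and 723.1 in WT lenses, differed by -0.83 and did not pass (limma adjusted p = 0.09407). The third, 1437889_x_at, overlapped between genotypes, at 305.5 and 313.6 in Klf4CN lenses and 428.3 and 313.4 in WT lenses, with a difference of -0.23 (limma adjusted p = 0.8256). The 3 probe sets of Bgn therefore shared a sign but not a size. The call was lost in 15 of 24 alternatives, including quantile normalization (limma adjusted p = 0.05222), no filter (0.05197), each array centred on its median (0.06977), and the fits without PN56 Klf4CN replicate 1 (-0.99, 0.1532), PN56 Klf4CN replicate 2 (-1.31, 0.08936), PN56 WT replicate 1 (-1.42, 0.06019), PN56 WT replicate 2 (-0.88, 0.1952) and E16.5 Klf4CN replicate 1 (-1.15, 0.06066). The fibroblast and mesenchyme markers went both ways in the same lenses. Pdgfra was called lower (-0.77, limma adjusted p = 0.04294), and Pdgfrb, Thy1 and Col1a1 were lower without overlap. Col3a1 was called higher, and Postn and Twist2 were higher without overlap. The part of such cells in the Bgn difference was not tested.

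**Figure D3:**
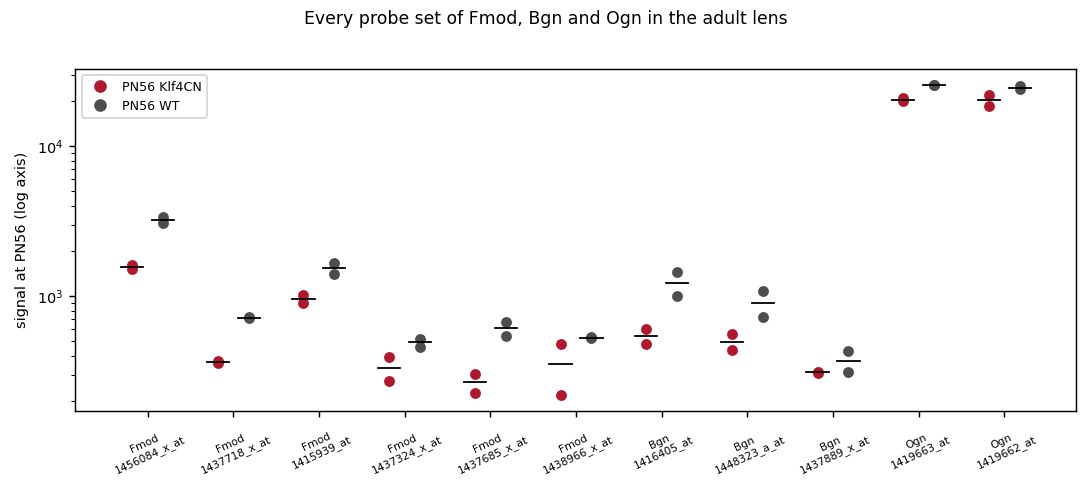
Signal at PN56 (vertical log axis) of every probe set of Fmod, Bgn and Ogn, with the 2 Klf4CN arrays left of the 2 WT arrays for each probe set and black bars at group means. The Klf4CN points lie below the WT points for all 6 Fmod sets, 2 of the 3 Bgn sets and both Ogn sets, and overlap for 1437889_x_at of Bgn.

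Fmod fell short of the test at PN56 although its genotypes did not overlap. The signals of 1621.6 and 1514.9 in Klf4CN lenses and 3361.6 and 3058.8 in WT lenses gave a difference of -1.03 ± 0.46 (SE; 95% interval -2.04 to -0.014, limma adjusted p = 0.1692). The spread in this fit is shared with the dim and scattered E16.5 arrays. With the 4 PN56 arrays alone the limma adjusted p was 0.003812, and with an offset of 64, which shrinks differences among dim signals, it was 0.01783. The remaining 24 of 27 alternatives left Fmod uncalled. In all 6 Fmod probe sets both Klf4CN arrays were below both WT arrays, which held for 27.4% of all 23670 probe sets tested. The 6 differences ran from -1.15 to -0.55, and when each probe set was tested by itself 1 passed, 1437718_x_at, with signals of 355.9 and 371.8 in Klf4CN lenses and 714.5 and 724.6 in WT lenses (-0.95, limma adjusted p = 0.03543). Probe sets of 1 gene read the same RNA and are not replicates, and 5 of these 6 carry the x suffix that marks probes which can match other sequences. The set without that suffix, 1415939_at, differed by -0.67 and did not pass (limma adjusted p = 0.3778).

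Prelp, Dcn and Lum were not called at PN56. Prelp, whose adult signals are given above, differed by -0.10 (limma adjusted p = 0.8779) with a 95% interval of -0.83 to 0.63, and by 0.028 once arrays were centred on their medians. Dcn differed by 0.31 (adjusted p = 0.6886), overlapping between genotypes, and by -0.073 without PN56 WT replicate 1. Lum (1423607_at) gave 70.5 and 79.2 in Klf4CN lenses and 21.1 and 11.6 in WT lenses, close to the dim end of the array. Its genotypes did not overlap, and the difference of 1.50 ± 0.73 did not pass (SE; limma adjusted p = 0.2012).

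The 3 members below the filter stayed dim in every group. Kera encodes keratocan, a keratan sulfate proteoglycan of the corneal stroma, and its probe set 1418063_at gave 2.5 and 6.5 in PN56 Klf4CN lenses, 33.7 and 77.8 in PN56 WT lenses, 15.4, 25.2 and 2 in E16.5 Klf4CN lenses, and 1.9, 23.9 and 13.1 in E16.5 WT lenses. Both adult WT arrays were above the other 8 arrays. In a fit with no filter the Kera difference at PN56 was -1.74 (limma adjusted p = 0.05867), and the WT age difference was 1.31 (adjusted p = 0.04215). Omd encodes osteomodulin, first known from bone, and its probe set 1418745_at gave 49.2 and 20.7 in PN56 Klf4CN lenses, 8.5 and 27 in PN56 WT lenses, 7.6 to 27.8 in E16.5 Klf4CN lenses and 3.6 to 22.2 in E16.5 WT lenses. Epyc encodes epiphycan, a dermatan sulfate proteoglycan of growth plate cartilage, and its probe set 1421114_a_at gave 27 and 63.3 in PN56 Klf4CN lenses, 35.9 and 28.2 in PN56 WT lenses, 15.6 to 39 in E16.5 Klf4CN lenses and 12.6 to 41.1 in E16.5 WT lenses. The groups overlapped for Omd and Epyc at both ages.

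At E16.5 no member was called between the genotypes. Of the 13440 tested genes 1 was called, which is 0.00744%, and 606 had an unadjusted p under 0.05. Prelp gave 77.7, 79.5 and 59.6 in Klf4CN lenses and 16.5, 50.2 and 37.8 in WT lenses, with no overlap and a difference of 0.85 ± 0.28 (SE; limma adjusted p = 0.9379). Dcn gave 299.9, 213.5 and 97.2 in Klf4CN lenses and 78.6, 68.2 and 94.9 in WT lenses, with no overlap, though Klf4CN replicate 3 was close to the highest WT array, and a difference of 1.07 ± 0.36 (limma adjusted p = 0.9538). Neither difference survived adjustment over all genes. Lum gave 255.3, 121.7 and 113.4 in Klf4CN lenses and 63.1, 5.8 and 128.9 in WT lenses, overlapping, with a difference of 1.42 ± 0.60 (limma adjusted p = 0.9998). Bgn gave 754, 502.3 and 1048.5 in Klf4CN lenses and 935.9, 946 and 536.2 in WT lenses and differed by -0.084, Ogn by -0.071 and Fmod by -0.73, each at a limma adjusted p of 0.9998.

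The members' median difference at E16.5 was 0.39, where that of all tested genes was -9.3e-05. Pigment and retinal markers were on the higher side in the same Klf4CN lenses without a call. The 7 pigment cell markers summed to 2256.3 to 7754.5 in E16.5 Klf4CN and 919.3 to 2313.2 in E16.5 WT lenses, and the 6 retinal markers on the array to 2955 to 6810 in E16.5 Klf4CN and 743.3 to 3086.5 in E16.5 WT lenses. The part of such tissue in the Prelp, Dcn and Lum values was not tested.

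Whether the genotype difference itself changed with age was tested as PN56 minus E16.5. Of the 6 tested members 0 passed, where 4.75% of all tested genes did and 2730 had an unadjusted p under 0.05. The value for Bgn was -1.06 ± 0.43 (SE; limma adjusted p = 0.187), for Prelp -0.95 (0.2457), for Ogn -0.26 (0.2401) and for Fmod -0.29 (0.8213). The lower Ogn and Bgn signals of adult Klf4CN lenses are therefore not shown to be restricted to the adult. The median over the members was -0.53, where that of all tested genes was -0.064. Centring each array on its median raised the all-gene median by 0.17 and raised the share of calls that were higher, 56% as deposited, to 83.2%.

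Other genes that share a cluster or a family with the members were examined next. In the RefSeq gene order Optc, Prelp and Fmod are neighbours on chromosome 1, Dcn, Lum, Kera and Epyc on chromosome 10, and Aspn, Omd and Ogn on chromosome 13. Optc encodes opticin, a proteoglycan of the vitreous and ciliary body, and Nyx encodes nyctalopin, known from retinal bipolar cells. Of 7 further genes of the family 3 were tested, and in WT lenses all 3 were called higher at PN56 than at E16.5, namely Nyx (2.44, limma adjusted p = 1.097e-05), Optc (3.13, 0.006215) and Podn, which encodes podocan (0.58, 0.01323, and 0.064 after centring). Of all tested genes 25% were called higher in this comparison. Optc gave 1011 and 858 in PN56 Klf4CN lenses, 1191.3 and 1502 in PN56 WT lenses, 99.9, 651.5 and 47.9 in E16.5 Klf4CN lenses, and 53.9, 374.4 and 120.2 in E16.5 WT lenses. All 3 neighbours of the chromosome 1 cluster were thus called higher in the adult WT lens.

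In adult Klf4CN lenses 1 of these 3 genes was called lower and 0 higher, where 6.98% of all tested genes were called lower. Nyx gave 418 and 310.4 in PN56 Klf4CN lenses and 889 and 786.8 in PN56 WT lenses, a difference of -1.18 ± 0.30 (SE; limma adjusted p = 0.02302). Its call was lost without PN56 WT replicate 1 (adjusted p = 0.1018), PN56 WT replicate 2 (0.05153) or PN56 Klf4CN replicate 2 (0.1301), and with array weights (0.1243). At E16.5 Nyx gave 173.5, 137.9 and 240.8 in Klf4CN lenses and 140.7, 110.3 and 181.5 in WT lenses. The change of its genotype difference with age was just past the test (-1.49, limma adjusted p = 0.04873) and was not recomputed under the alternatives.

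The enzymes that build the sugar chains were split into 3 lists for the comparison of adult genotypes. Of 8 tested genes for the linker and the sulfate donors 0 were called, with a median difference of -0.17, where 13% of all tested genes were called. Of 6 tested keratan sulfate genes 2 were called higher in Klf4CN lenses and 0 lower, where 6.04% of all tested genes were higher. B4galt4, a galactosyltransferase that extends keratan sulfate, gave 888.6 and 704.4 in PN56 Klf4CN lenses and 170.2 and 238.7 in PN56 WT lenses. The difference of 1.89 ± 0.28 passed the test (SE; limma adjusted p = 0.001348) and in all 21 alternatives. Its change with age passed too (2.00, limma adjusted p = 0.01209) but was not recomputed under the alternatives. B3gnt2, which adds the alternate sugar of the same chain, was at 0.70 (limma adjusted p = 0.03688), a call lost in 11 of 21 alternatives, with a value of 1.17 when probe sets were averaged. Of the members, Ogn was called lower in these lenses, while Fmod (-1.03) was lower and Lum (1.50) higher, both without a call. Bgn, which was called lower, carries chondroitin or dermatan sulfate chains.

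Of 14 tested chondroitin and dermatan sulfate enzymes 2 were called higher in adult Klf4CN lenses and 1 lower. The shares over all tested genes were 6.04% higher and 6.98% lower. Chst15, a sulfotransferase, was at 0.75 (limma adjusted p = 0.0417) and Chpf, a polymerizing factor, at 1.33 (0.04973), and both calls were lost without any one of 9 of the 10 arrays. Chst15 was at 0.43 without PN56 Klf4CN replicate 1, and Chpf at 2.04 without PN56 WT replicate 1 and 0.62 without PN56 WT replicate 2. Chsy1, a chondroitin synthase, gave 1003 and 841.1 in PN56 Klf4CN lenses and 1657.5 and 1358.6 in PN56 WT lenses (-0.70, limma adjusted p = 0.0153), a call lost without PN56 WT replicate 1 (adjusted p = 0.1043) or PN56 Klf4CN replicate 2 (0.0982) and after centring (0.09686), in all in 6 of 21 alternatives. With age, 6 of the 14 were called lower and 1 higher in WT lenses, where 30.7% of all tested genes were lower. Chst15 was at -2.27 (limma adjusted p = 1.417e-06), Dse, the epimerase that makes dermatan sulfate, at -1.60 (7.555e-05) and Chsy1 at -1.04 (7.937e-05).

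In the age comparison of WT lenses the other 2 enzyme lists were mixed, where 25% of all tested genes were called higher and 30.7% lower. Of the linker and sulfate donor genes 2 were called higher and 2 lower, among them Slc26a2, a sulfate transporter (-1.73; -1.14 with averaged probe sets and -1.11 without PN56 WT replicate 1, both past the test), B4galt7, which adds the first galactose of the linker (-1.09; -0.65 with averaged probe sets and past the test; lost without PN56 WT replicate 1, adjusted p = 0.05264), and Fam20b, a kinase of the linker (0.72; 0.20 after centring and 0.21 with averaged probe sets, neither past the test). Of the keratan sulfate genes 2 were called higher and 1 lower. Chst1, which sulfates galactose in keratan sulfate, was at 0.99 (limma adjusted p = 0.003746; 0.47 and not past the test with centring), Chst2 at 0.69 (0.02585; lost without PN56 WT replicate 2, 0.40, or E16.5 WT replicate 2, 0.63, after centring, 0.18, and with averaged probe sets, 0.57) and B4galt1 at -1.25 (8.39e-05).

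The collagens that the family binds did not move together. Of 13 tested genes 1 was called higher in adult Klf4CN lenses and 0 lower, where 6.04% of all tested genes were called higher. It was Col3a1, a collagen of loose connective tissue, at 36.3 and 109 in PN56 Klf4CN lenses and 3.3 and 27.7 in PN56 WT lenses (1.48, limma adjusted p = 0.0396), a call lost without 8 of the 10 arrays taken 1 at a time and turned to -0.090 when the gene's probe sets were averaged. The Col3a1 value was 2.53 with an offset of 1, 0.75 with an offset of 64, 0.89 when PN56 WT replicate 1 was left out and 0.85 when PN56 Klf4CN replicate 2 was. In WT lenses 3 collagens were called higher at PN56 and 3 lower, where 25% of all tested genes were higher and 30.7% lower. Col3a1 was at -3.82 (limma adjusted p = 4.76e-06; -2.14 with averaged probe sets) and Col5a2, a fibril-nucleating collagen, at -1.93 (0.0004169), whereas Col6a3, a beaded-filament collagen that binds decorin and biglycan, was at 0.93 (1.079e-05; 0.41 and still past the test after centring).

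Among 7 tested proteases that process or cleave these proteoglycans, 1 was called higher in adult Klf4CN lenses and 0 lower. The share of all tested genes called higher was 6.04%. Mmp2, a gelatinase, gave 418.9 and 221.8 in PN56 Klf4CN lenses and 136.7 and 35.8 in PN56 WT lenses (1.85, limma adjusted p = 0.03284), a call lost without PN56 WT replicate 2 (1.07, 0.1881) or PN56 Klf4CN replicate 1 (1.42, 0.1596), with array weights (0.1068), without the intensity trend (0.08331) and with only the groups compared (0.08127). With age in WT lenses 2 were called higher and 2 lower, where 25% of all tested genes were higher and 30.7% lower. Adamts4 and Adamts5, the aggrecanases, were at 3.04 (limma adjusted p = 5.152e-07) and 1.94 (8.569e-05), and Mmp14, a membrane-bound metalloprotease, at -1.68 (2.479e-05). Adamts4 gave 825.9 and 598.6 in PN56 Klf4CN lenses, 1149.3 and 1275.4 in PN56 WT lenses, 162.1 to 195.9 in E16.5 Klf4CN lenses and 104.3 to 179.6 in E16.5 WT lenses.

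Among 13 tested ligands and receptors that bind the family, 1 was called higher and 2 lower in adult Klf4CN lenses. The shares over all tested genes were 6.04% higher and 6.98% lower. Tgfbr1, the type I receptor of TGF-beta, was at -0.65 (limma adjusted p = 0.009163), Tgfb2, one of its ligands, at -0.74 (0.01334) and Tgfbr2, the type II receptor, at 1.10 (0.04301; lost without any one of 8 of the 10 arrays). The Tgfbr1 call was lost with averaged probe sets (-0.24, adjusted p = 0.5057), after centring (0.07179), with array weights (0.05738) and without PN56 WT replicate 2 (0.0555). The Tgfb2 call was lost in 6 of 21 alternatives, among them averaged probe sets (-0.40, limma adjusted p = 0.1093) and centring (adjusted p = 0.07825). The fits without PN56 WT replicate 2 (-0.69) or PN56 Klf4CN replicate 2 (-0.50) lost it as well. Tgfbr2 was at 0.52 with averaged probe sets (0.3235) and 0.59 without PN56 WT replicate 1 (0.2441). In WT lenses 5 genes of the list were called higher at PN56 and 3 lower, where 25% of all tested genes were higher and 30.7% lower. Tgfb3, a TGF-beta ligand, gave 2375.6 and 1804.2 in PN56 Klf4CN lenses, 2427 and 2334.8 in PN56 WT lenses, 148.3 to 196.1 in E16.5 Klf4CN lenses and 137.7 to 159.4 in E16.5 WT lenses, a WT age difference of 3.86 (limma adjusted p = 8.029e-09). Tlr2, a receptor of the innate immune system that binds biglycan, was at 1.94 (3.169e-05), and Tgfbr1 at -1.12 (9.585e-06), a value of 0.26 when its probe sets were averaged. At E16.5 no gene of any of the 7 related lists was called between genotypes.

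**Figure D4:**
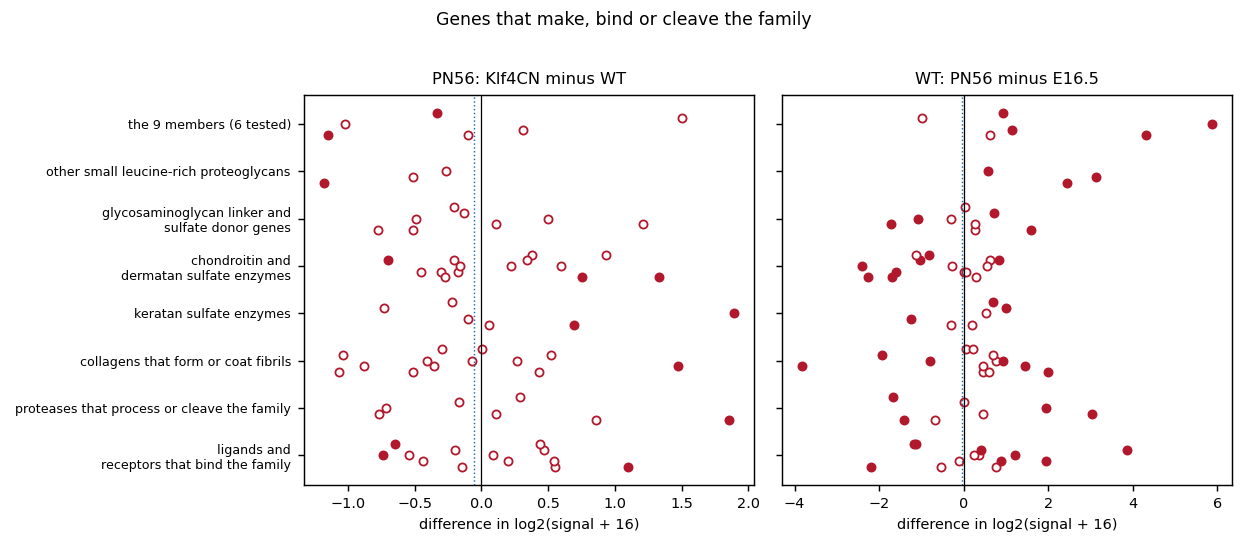
Differences in log2(signal + 16) of the tested members and of 7 lists of related genes, Klf4CN minus WT at PN56 (left) and PN56 minus E16.5 in WT lenses (right). Each circle is a gene, filled where the adjusted p is under 0.05, and the dotted line is the median of all tested genes. On the left few circles are filled and they lie on both sides of 0, with B4galt4 farthest right among them; on the right Fmod is farthest right, and the chondroitin and dermatan sulfate enzymes have 6 filled circles below 0.

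For each tested member whose 4 group means spanned at least 1 on the log2 scale, the genes with the most similar profile were sought by the root mean square difference of log2(signal + 16) over the 10 arrays, each gene centred on its own mean. This is a description and was not tested. Nearest to Fmod were Nfix, a nuclear factor I gene, at 0.55 and Clic5, a chloride intracellular channel gene, at 0.60, where the median gene was at 2.93. Nfix averaged 5570 in PN56 Klf4CN, 10777 in PN56 WT, 120 in E16.5 Klf4CN and 103 in E16.5 WT lenses. Nearest to Prelp were Serping1, the C1 inhibitor, at 0.30 and Dpyd, a pyrimidine-degrading enzyme, at 0.33 (median 1.98). Nearest to Bgn were Mapk15 at 0.20 and Ccm2l at 0.22 (median 0.68), to Dcn Folr2 at 0.38 and Bace2 at 0.39 (median 0.84), and to Lum Bpifb1 at 0.75 and Cacna1f at 0.76 (median 1.18). For Bgn, Dcn and Lum these distances are a larger share of the median than for Fmod and Prelp. The group means of Ogn spanned less than 1.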

How the data were processed

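Lens RNA was measured on 10 Affymetrix mouse 430 2 arrays, 1 linear intensity per probe set and array in the deposited table. Per the submitters' processing notes the values were made with GCOS 1.4; how the probes were summarised is not given in the sources used here, and the trimmed mean was 500 on every array. No detection call was used. The table held 45101 probe sets, 64 of them controls. A single gene symbol was given for 34958, several for 932 and none for 9211. Groups follow the genotype and age in the labels.

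Signals were tested as log2(signal + 16), without further scaling, which understates the change of dim genes. Each gene was read from its brightest probe set, and genes at or above the 40th percentile of mean signal were kept, 13440 in all. All 10 arrays entered 1 limma fit (version 3.58.1, R 4.3.3) with 4 group means and an intensity trend, because 2 arrays in a group give little measure of spread, and p-values are two-sided and adjusted by Benjamini-Hochberg over all genes tested. They measure only the spread between these preparations. The code of the fit was run on simulated signals with known changes and no age difference, which does not show its error rate on these data. Comparisons that share arrays, such as both age comparisons and the genotype comparisons, are not independent of each other.

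The members, the 7 lists of related genes and the 10 marker lists were chosen with earlier results of these data known. Named genes were the members, Klf4, up to 4 called genes of smallest p per related list for Klf4CN against WT, up to 3 for PN56 against E16.5 in WT lenses, and the 2 nearest profiles of each member. Markers named beside a result were chosen after their values were seen. Promoter windows and gene order came from RefSeq (GRCm38.p6).

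The alternatives tried were 2 other scalings (quantile, and centring on array medians), an offset of 1 or 64, the filter removed or moved to the 60th percentile, probe sets tested singly or averaged per gene, eBayes without its trend, array weights, a fit of only the groups compared, each array left out in turn, and the replicate number as a block. Recomputing the related genes and the number of members called under these settings was decided after seeing the data. Same-numbered arrays were checked for shared deviations. At E16.5 their correlations were 0.27, 0.24 and 0.05, and those of differently numbered arrays ran from -0.28 to 0.063. The PN56 value of 0.04 cannot inform, because with 2 arrays in a group the deviations mirror each other. The labels do not say that a number is shared between groups. Whether the numbers pair the arrays is therefore not settled, and the main fit did not take them as pairs.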

Additional observations from a re-analysis of the deposited data

How the results depend on the processing

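Of the 30 member results 9 were called. Over 213 alternatives these kept direction and call in 178, lost the call in 35 and reversed in 0. The age calls of Fmod, Prelp and Ogn held in every alternative run, in both genotypes, and the losses were those of Ogn and Bgn at PN56 and of Dcn in WT lenses with age. In the other 476 alternatives, of results not called, 22 reversed and 5 became called; the cause was not tested.

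For Klf4CN against WT at PN56, 1750 genes were called, 1073 with averaged probe sets, 1165 without the intensity trend, 637 with array weights, 806 with only the groups compared and 1061 to 1906 without 1 array. At E16.5 the count was 1, with 3 under quantile normalization, 8 with array weights, 0 with averaged probe sets, without the trend, with only the groups compared and with the replicate block, and 0 to 3 without 1 array. For the difference between ages it was 638, with 295 for averaged probe sets, 201 without the trend, 318 with array weights and 277 to 940 without 1 array. With every probe set tested by itself, 12329 probe sets differed between ages in WT lenses and 11552 in Klf4CN lenses, where 7483 and 7006 genes were called; leaving out 1 array gave 6545 to 7756 and 5851 to 7279. Centring each array on its median lowered the share of age calls that were higher, 44.9% in WT and 41.5% in Klf4CN lenses as deposited, to 19.9% and 22.6%.

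The replicate block ended the call of Bgn at PN56 (-1.15, limma adjusted p = 0.06185) and of Dcn with age in WT lenses (0.99, 0.07364). It changed no other member call. The labels do not say that the numbers pair the arrays, so the block was not read as a paired test.

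Reversed values of uncalled member results were as follows. At PN56 Prelp was at 0.028 with centring, and Dcn at -0.54 with averaged probe sets and between -0.073 and 0.70 without 1 array, negative without PN56 WT replicate 1. At E16.5 Fmod was at 0.20 by 1438966_x_at, Ogn at 0.13 by 1419662_at and 0.032 with averaged probe sets, and Bgn at 0.045 by 1437889_x_at, 0.0083 by 1448323_a_at and between -0.35 and 0.18 without 1 array, positive without WT replicate 1 or 2 or Klf4CN replicate 2. In the difference between ages Fmod was at 0.51 with an offset of 1 and between -0.73 and 0.12 without 1 array, positive without E16.5 Klf4CN replicate 2. Lum was there at -0.082 with an offset of 64, -0.027 with array weights and between -0.52 and 0.84 without 1 array, negative without E16.5 WT replicate 1 or 3, E16.5 Klf4CN replicate 2 or 3, or PN56 WT replicate 2. With age, Bgn was at -0.050 by 1437889_x_at in WT lenses, and Dcn in Klf4CN lenses lay between -0.026 and 0.71 without 1 array, negative without E16.5 Klf4CN replicate 3. Of the related genes, averaging probe sets turned Col3a1 at PN56 to -0.090 and Tgfbr1 with age to 0.26.

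With 2 arrays per genotype at PN56, a group reduced to 1 array was assumed to vary like the others. Signals below the filter level of 45.1, which hold nearly all values of Kera, Omd and Epyc and most embryonic values of Fmod, lie where the offset sets the size of a difference.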

Other observations

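The fall in endothelial and macrophage markers between the embryonic and the adult lens covered nearly all of both lists. In WT lenses 6 of 6 endothelial markers were called lower at PN56 than at E16.5 and 0 higher, with a median log2 difference of -3.03, and in Klf4CN lenses likewise 6 of 6 with a median of -3.29. Of the 7 macrophage markers 6 were called lower with age in Klf4CN lenses and 7 in WT lenses. Of all tested genes 30.7% were called lower with age in WT lenses and 30.5% in Klf4CN lenses. In adult Klf4CN lenses 2 macrophage markers were called higher than in adult WT lenses and 0 lower, with a median of 0.67. The share of all tested genes called higher there was 6.04%. Fmod, Prelp, Optc and Nyx moved the other way in WT lenses, by 5.87, 4.31, 3.13 and 2.44, while Lum had a negative difference in both genotypes without a call.

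Aldh3a1, an aldehyde dehydrogenase best known from corneal epithelium, was at 4964 to 6375.7 in PN56 Klf4CN, 10950.8 to 13107.9 in PN56 WT, 3.6 to 4.1 in E16.5 Klf4CN and 5.1 to 8.2 in E16.5 WT lenses. It was named after its values were seen. Its pattern has the same order of groups as that of Fmod, bright only in the adult and dimmer in adult Klf4CN lenses.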
